A study of Arabidopsis thaliana with 8 samples.

Results

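Pat nrpd1+/- endosperm comes from seeds in which only the father lacked NRPD1, the largest subunit of RNA polymerase IV (Pol IV). Its mRNA levels were set against WT endosperm for 16262 genes, out of 37329 listed in each table of the series. These are the genes that the authors' program marked as testable and that lie outside 12 regions where Col-0 sequence remains in the Ler nrpd1 plants. In the pat nrpd1+/- cross, a Ler mother with functional NRPD1 was pollinated by a Col father homozygous for the nrpd1 mutation. In the WT cross, a Ler mother was pollinated by a Col-0 father. Both endosperms are thus Ler by Col hybrids, and the pat nrpd1+/- endosperm keeps its maternal NRPD1 copies. Seeds were dissected 7 days after pollination and endosperm of many seeds was pooled. The series also holds mat nrpd1+/- endosperm (Ler nrpd1-/- mother, Col-0 father) and nrpd1-/- endosperm (both parents mutant).

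Endosperm is the seed tissue that feeds the embryo, and it receives more genome copies from the mother than from the father. Pol IV transcribes transposons and other repeats into precursors that RDR2 makes double-stranded and DCL3 cuts into small interfering RNAs (siRNAs). AGO4 and its relatives carry these siRNAs to chromatin, where DRM2 methylates the DNA, a route called RNA-directed DNA methylation (RdDM). The comparison asks what endosperm gains and loses when the father's Pol IV is missing while the mother's is present.

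Expression was given as FPKM, fragment counts scaled to transcript length and library size, with 1 pooled value for each genotype. No replicate values were at hand, so no difference below has a replicate error or a test, and the depth behind each value is unknown. Ratios are log2 of (pat nrpd1+/- FPKM + 1) over (WT FPKM + 1), which understates the change of genes with low levels, and a gene was called higher or lower when this ratio reached 1 or -1, a 2-fold difference. Folds given for single genes are plain ratios of FPKM, and only where both values reach 1 FPKM.

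NRPD1 itself, which lies in one of the left-out regions, had 0.845 FPKM in pat nrpd1+/- endosperm, against 2.01 FPKM in WT endosperm. The mutant thus held 42.0% of the WT level, the direction the label gives. This is a weak check of the label. The mutant value is under the 1 FPKM set for folds, and no ratio corrected for transcript length was computed for left-out genes. ZOU (ZHOUPI) and MYB118, transcription factors of the endosperm, had 44.8 and 65.0 FPKM in pat nrpd1+/- endosperm, and 49.99 and 94.3 FPKM in WT endosperm. The early endosperm genes AGL62 and IKU2 were under 0.2 FPKM in both genotypes, and MINI3 was listed at 0 in both. Over 14 seed coat markers the summed level was 219 FPKM in pat nrpd1+/- and 186 FPKM in WT, with no marker at 0 in either. Without AT3G50990 the sums were 174 FPKM in pat nrpd1+/- and 179 FPKM in WT. Single seed coat markers ran both ways: of the 9 compared, 5 had a higher value and 4 a lower one, with a median log2 ratio of 0.38. Over 15 embryo markers it was 43.3 FPKM in pat nrpd1+/- and 44.4 FPKM in WT, with 5 at 0 in pat nrpd1+/- and 1 at 0 in WT. CUC1 carried most of this, and the other 14 summed to 9.78 FPKM in pat nrpd1+/- and 16.5 FPKM in WT. Xylem markers were near 0 in both genotypes, at a sum of 0.105 FPKM in pat nrpd1+/- and 0.119 FPKM in WT. In such bulk samples fewer cells of a type and less RNA per cell cannot be told apart.

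Of the 16262 genes, 372 were higher in pat nrpd1+/- endosperm (2.29%) and 466 were lower (2.87%). Together these make 5.15%, and the median log2 ratio of all genes was 0.03. Among the 12853 genes at 1 FPKM or more in both the median plain log2 ratio was 0.06, and with that taken off every ratio 305 genes were higher and 612 lower. Protein-coding genes made up 255 of the higher genes (1.73% of those compared) and 334 of the lower ones (2.27%), 3.99% in all. Over the 14972 genes also testable in the nrpd1-/- table, 1.86% were higher and 2.55% lower, 4.41% in all. Between the WT values of those 2 tables, once scaled to the same median, 10.3% of the same genes were higher and 15.8% lower past 2-fold, 26.1% in all. In the mat nrpd1+/- table, over its WT, 9.13% of 17307 genes were higher and 12.2% lower, 21.3% in all. Short noncoding RNAs were called far more often: of 159 small nucleolar RNAs, 31 were higher and 30 lower. The plot of pat nrpd1+/- against WT levels shows 9 of 15 small heat shock genes above the upper 2-fold line, and 4 of 5 storage albumin genes and 5 of 7 globulin genes below the lower one.

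**Figure D1:**
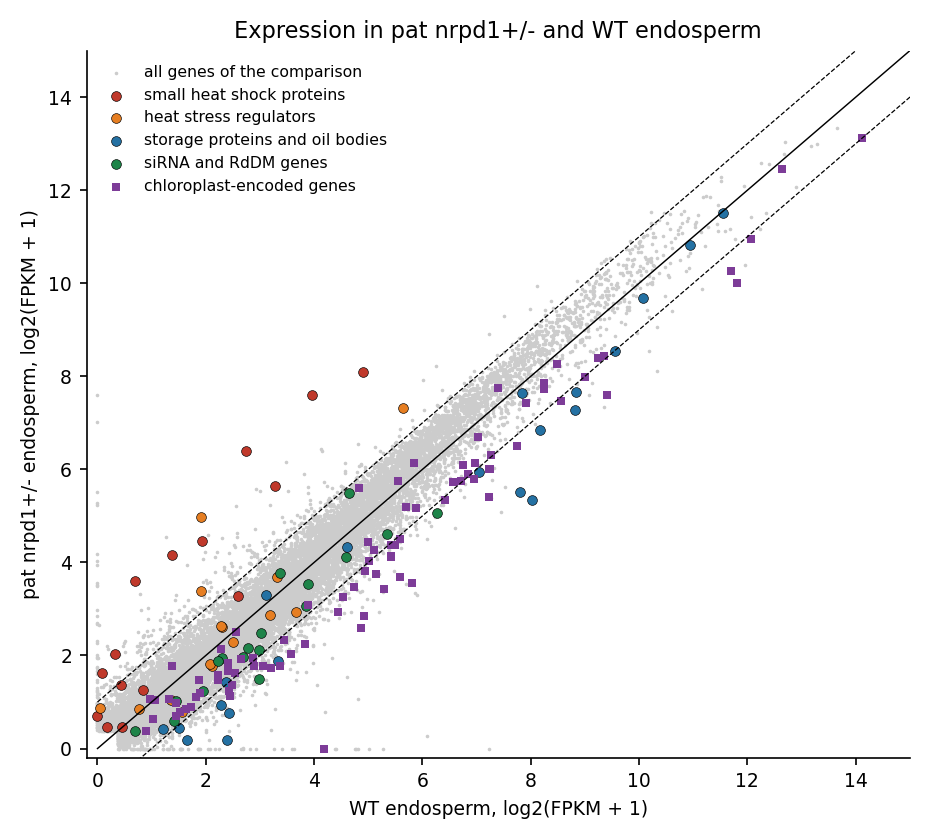
Each point is a gene, with its level in pat nrpd1+/- endosperm on the y axis and in WT endosperm on the x axis, both as log2(FPKM + 1), each from 1 pooled value. The solid line marks equal levels and the dashed lines mark 2-fold differences, which 372 genes exceed upwards and 466 downwards.

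Transcript length went along with the ratio across the whole table. Protein-coding genes whose values both reached 1 FPKM were put in 5 equal groups by length. The shortest group (transcripts up to 1055 bp) had a median plain log2 ratio of 0.49, and 79.8% of them were higher in pat nrpd1+/-. The longest group (from 2353 bp) had a median of -0.63, and 8.21% were higher. Many medians and ratios below are therefore also given after the median of genes of like length was taken off, called length-centred. The WT values of the nrpd1-/- table, scaled to the same median, also went along with length. Their median log2 ratio over the WT used here was -1.40 in the shortest group and 0.70 in the longest. The part of length in any single result was not tested.

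**Figure D2:**
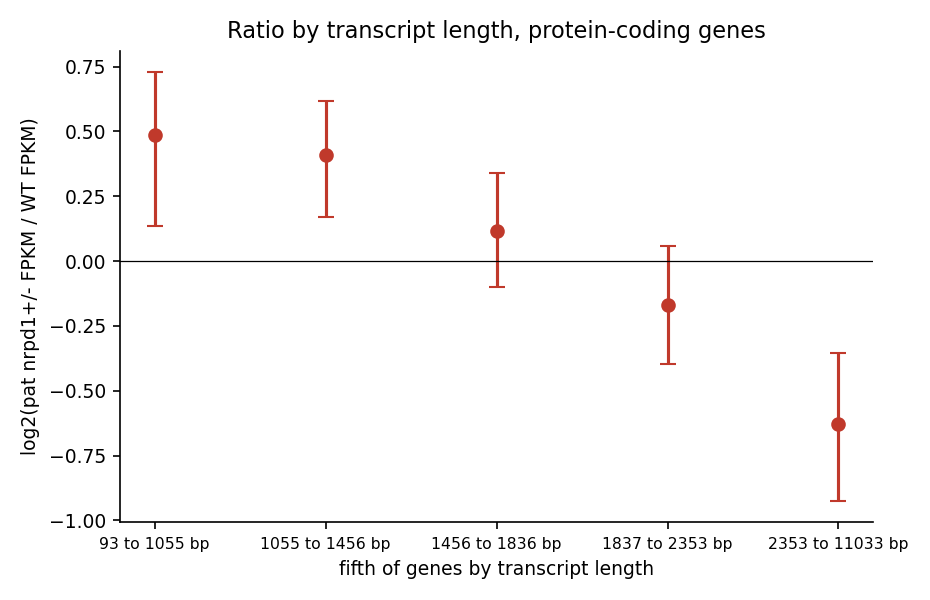
Points are the medians of log2(pat nrpd1+/- FPKM / WT FPKM) for 5 equal groups of protein-coding genes ordered by transcript length, and bars run from the lower to the upper quartile of genes. The medians descend from 0.49 in the shortest group to -0.63 in the longest.

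The clearest gain was in small heat shock proteins, chaperones that bind unfolding proteins and keep them from clumping. Of 18 listed, 15 were in the comparison. All 15 had a higher value in pat nrpd1+/- endosperm and 9 were past 2-fold, beside the 2.29% of all genes that were. Their median log2 ratio was 1.71, and 1.21 length-centred. Summed over the 18 listed genes, the level was 851 FPKM in pat nrpd1+/- endosperm and 112 FPKM in WT endosperm.

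In the cytosolic class I, HSP17.4 had 193 FPKM in pat nrpd1+/- endosperm, against 14.6 FPKM in WT endosperm, a 13.3-fold difference. AT1G07400 had 271 FPKM in pat nrpd1+/- and 28.8 FPKM in WT, and AT2G29500 had 16.8 FPKM in pat nrpd1+/- and 1.58 FPKM in WT. These genes of 1 class thus differed 9.41-fold or more. HSP18.2, of the same class, was barely expressed, at 1.39 FPKM in pat nrpd1+/- and 0.791 FPKM in WT. The coding sequences of HSP17.4 and AT1G07400 were 68.6% identical with no identical stretch over 13 bases, while AT1G07400 and AT1G59860 were 88.1% identical with a stretch of 43 bases, so reads may be shared between that pair. AT1G59860, in a left-out region, had 160 FPKM in pat nrpd1+/- and 28.9 FPKM in WT.

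The cytosolic class II genes HSP17.6A and HSP17.6II lie side by side on chromosome 5 (3883957 to 3884838 and 3882231 to 3883111, TAIR10.1). HSP17.6A had 83.0 FPKM in pat nrpd1+/- endosperm and 5.72 FPKM in WT endosperm, the largest fold of any protein-coding gene named by size, at 14.5. HSP17.6II had 21.0 FPKM in pat nrpd1+/- and 2.81 FPKM in WT. Both members of the class were therefore well above WT, though their coding sequences are 86.1% identical with a stretch of 33 bases, so reads may be shared. Organelle-bound forms were higher too: HSP23.6-MITO of the mitochondrion had 11.2 FPKM in pat nrpd1+/- and 0.607 FPKM in WT, and ATHSP22.0 of the endoplasmic reticulum had 3.11 FPKM in pat nrpd1+/- and 0.251 FPKM in WT. AT5G51440, an HSP20-like chaperone, had 48.6 FPKM in pat nrpd1+/- and 8.74 FPKM in WT. AT5G37670 had 2.06 FPKM in pat nrpd1+/- and 0.0650 FPKM in WT, a level at which WT transcripts were close to nil. HSP21 of the chloroplast stayed low, with 0.618 FPKM in pat nrpd1+/- and a listed 0 in WT.

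Among 15 heat stress transcription factors and their helpers in the comparison (23 listed), 3 were past 2-fold, all higher, beside 2.29% of all genes. The median was 0.07 (0.14 length-centred). HSFA7A, a heat shock factor that itself responds to heat, had 30.6 FPKM in pat nrpd1+/- endosperm and 2.75 FPKM in WT endosperm, 11.1-fold apart. HSFA2, the factor that prolongs the heat response, had 9.38 FPKM in pat nrpd1+/- and 2.78 FPKM in WT. MBF1C, a coactivator of thermotolerance, had 159 FPKM in pat nrpd1+/- and 48.7 FPKM in WT. None of the HSFA1 genes, the constitutive master factors, was past 2-fold. HSFA1A had 2.43 FPKM in pat nrpd1+/- and 3.35 FPKM in WT, and HSFA1B 6.67 FPKM in pat nrpd1+/- and 11.7 FPKM in WT. HSFA1D had 3.86 FPKM in pat nrpd1+/- and 4.65 FPKM in WT. HSFA1E was slightly higher, at 0.796 FPKM in pat nrpd1+/- and 0.709 FPKM in WT.

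Large chaperones moved much less. Of 20 compared (26 listed), 2 were higher past 2-fold, beside 2.29% of all genes, and the median was 0.07 (0.35 length-centred). Those 2 were ROF2, an FKBP-type helper of HSP90 (8.13 FPKM in pat nrpd1+/-, 2.19 FPKM in WT), and HSA32, needed for long-lasting heat tolerance (39.8 FPKM in pat nrpd1+/-, 14.2 FPKM in WT). HSP90.1, the heat-inducible HSP90, lay just under the line with 30.0 FPKM in pat nrpd1+/- and 14.97 FPKM in WT, and past it once length-centred (1.13). HSP70 had 119 FPKM in pat nrpd1+/- and 104 FPKM in WT, and HSP101, in a left-out region, had 9.40 FPKM in pat nrpd1+/- and 8.83 FPKM in WT. Length-centred, 3 of the 20 large chaperones were higher past 2-fold, beside 9 of the 15 small heat shock proteins. The excess therefore lay mainly in small heat shock proteins, a few regulators and a few large chaperones rather than across the chaperones as a class.

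**Figure D3:**
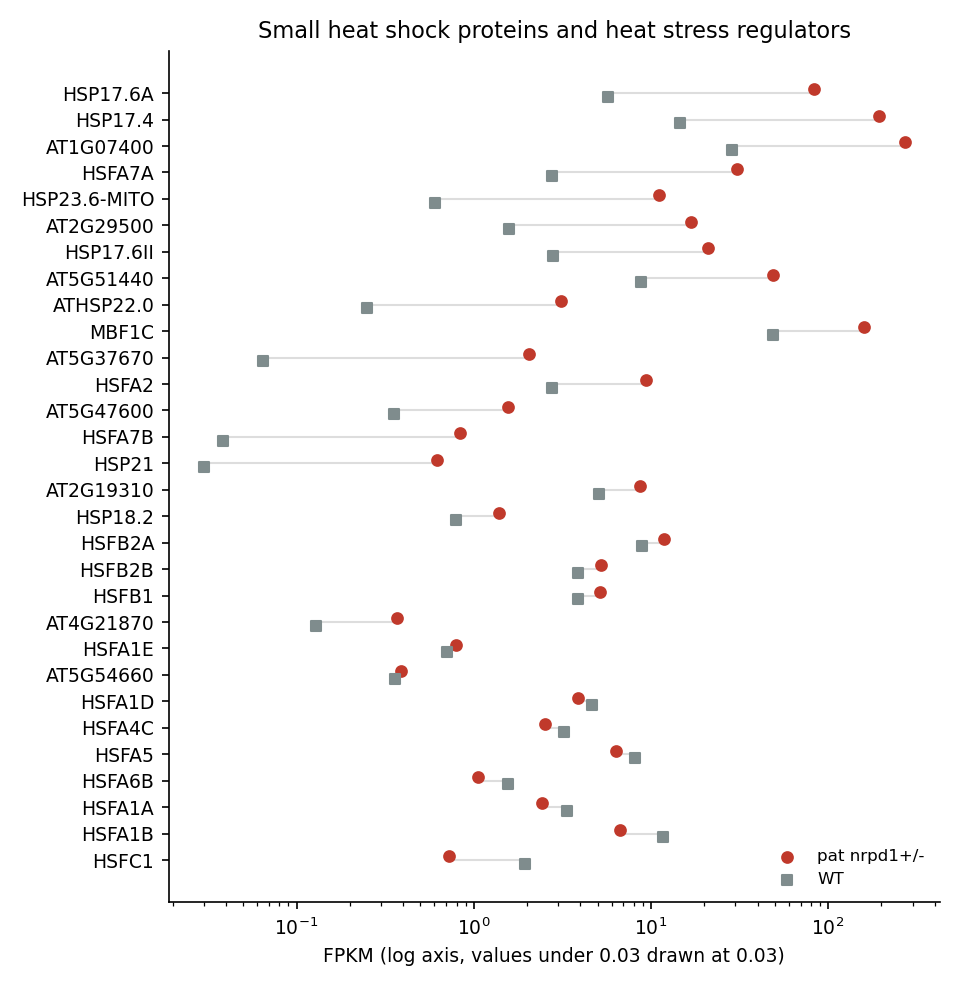
Red circles are pat nrpd1+/- and grey squares WT endosperm, in FPKM on a log axis, 1 pooled value each, for the 30 small heat shock proteins and heat stress regulators compared. HSP17.6A, HSP17.4, AT2G29500, AT1G07400 and HSFA7A, which reach 1 FPKM in both, are 9.41-fold or more apart, while HSFA1A and HSFA1B lie within 2-fold.

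Heat shock factors bind repeats of GAA and its complement. The 250 bases before the annotated start were searched on both strands for a run of 3 such units (GAA, any 2 bases, TTC, any 2 bases, GAA) in 14743 protein-coding genes, and 0.387% held it. It was in 1 of 15 small heat shock genes (HSP17.4) and 3 of 15 regulators (HSFA2, HSFA7A and HSFA7B), and in 1.18% of the higher and 0.898% of the lower genes. The 200 bases before HSP17.4 and HSFA7A are shown because they carry 2 such runs each, on either strand, given in capitals (RefSeq TAIR10.1, read 5′ to 3′ along each gene).
HSP17.4, chr3:16984868-16985067, minus strand: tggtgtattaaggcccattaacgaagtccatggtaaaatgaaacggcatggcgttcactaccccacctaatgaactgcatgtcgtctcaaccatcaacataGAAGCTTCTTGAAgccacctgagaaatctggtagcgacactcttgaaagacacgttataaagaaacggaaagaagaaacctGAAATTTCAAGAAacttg
HSFA7A, chr3:19264941-19265140, plus strand: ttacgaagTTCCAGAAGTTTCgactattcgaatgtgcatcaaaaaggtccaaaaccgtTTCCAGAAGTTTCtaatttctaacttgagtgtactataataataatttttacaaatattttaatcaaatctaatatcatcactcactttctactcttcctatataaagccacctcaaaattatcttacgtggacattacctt
A match of letters is not a shown binding site, and HSP17.6A and AT1G07400, which differed as much, had no such run in this window.

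The heat shock genes were also compared with WT values that rest on other WT data, those in the table made for nrpd1-/- endosperm, which was normalized separately and was scaled here to the same median. There HSP17.4 had 9.28 FPKM, HSP17.6A 0.313 FPKM, AT1G07400 11.4 FPKM and HSFA7A 2.02 FPKM, so pat nrpd1+/- lay above both WT values. This held for 14 of the 15 small heat shock proteins, the exception being AT5G54660, counting genes not testable in that table. Over genes testable in both, 7 were higher past 2-fold against that WT. In the shortest group of genes by length, that WT had a median log2 ratio of -1.40 over the WT used here. The part of length in the count of 14 was not tested. At most of these genes the other WT was the lower of the 2, so a value above the WT used here was above both by necessity. In mat nrpd1+/- endosperm, compared with the same WT values as pat nrpd1+/- endosperm, HSP17.4 had 432 FPKM, AT1G07400 362 FPKM, HSFA7A 23.4 FPKM and HSP17.6A 37.0 FPKM. That table set the WT values at 16.6, 33.0, 3.12 and 6.55 FPKM. The 2 comparisons share their WT data, so they are not independent.

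The largest gains outside heat shock genes included a seed coat marker and genes of other kinds. AT3G50990, a class III peroxidase of the outer seed coat, had 45.4 FPKM in pat nrpd1+/- endosperm, against 7.00 FPKM in WT endosperm. Close to it in size were AT4G25830, a UPF0497 membrane protein (36.4 FPKM in pat nrpd1+/-, 4.86 FPKM in WT), AIR1 (23.1 FPKM in pat nrpd1+/-, 3.12 FPKM in WT) and AT5G47350, an alpha/beta-hydrolase (46.8 FPKM in pat nrpd1+/-, 6.62 FPKM in WT). In the table for mat nrpd1+/- endosperm these 4 genes had log2 ratios between -2.05 and -2.78 over the shared WT values. Of the 9 seed coat markers compared, AT3G50990 alone was past 2-fold, and the median was 0.38 (0.38 length-centred). STK, which specifies ovule and seed coat identity, had 15.9 FPKM in pat nrpd1+/- and 8.68 FPKM in WT. TT10, the laccase that browns the seed coat, ran the other way with 24.5 FPKM in pat nrpd1+/- and 47.3 FPKM in WT. The part of seed coat tissue in these differences was not tested.

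Several families of secreted and detoxifying proteins gained single members. Of 104 genes for pectin-modifying enzymes and their inhibitors, 7 were higher (4 of them also length-centred) and 1 was lower, beside 2.29% and 2.87% of all genes, all 8 annotated as pectin methylesterase inhibitors or the related invertase inhibitors. The most abundant of them, AT4G15750, had 632 FPKM in pat nrpd1+/- endosperm and 180 FPKM in WT endosperm. Of 29 glutathione S-transferases, which conjugate toxins and carry pigments, 3 were higher, also length-centred, and none lower. GSTF12 (TT19), which carries flavonoids to the vacuole, had 69.6 FPKM in pat nrpd1+/- and 22.8 FPKM in WT, and GSTF6 had 45.3 FPKM in pat nrpd1+/- and 10.4 FPKM in WT. Of 20 aquaporins, 3 were higher and 1 lower, and none of the 3 stayed past 2-fold when length-centred. MYB5, a regulator of seed coat mucilage and tannins, had 12.6 FPKM in pat nrpd1+/- and 4.97 FPKM in WT (0.87 length-centred), and LTP3, a lipid transfer protein, had 1061 FPKM in pat nrpd1+/- and 465 FPKM in WT (0.78 length-centred), both within 2-fold once length-centred.

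Ribosomal protein genes, which are short, had a shallow gain. Of 263 ribosomal protein genes, 245 had a higher value in pat nrpd1+/- endosperm and none was lower past 2-fold. Past 2-fold higher were 10 (1 of them length-centred), 3.8%, close to the 2.29% of all genes. Their median was 0.60, against 0.21 length-centred, and their median transcript was 989 bp. EMB2296, a ribosomal protein of the L2 family, had 2941 FPKM in pat nrpd1+/- and 1411 FPKM in WT. Of 22 cell cycle genes compared (26 listed), 2 were higher, beside 2.29% of all genes, and the median was -0.03, with 10 above and 12 below 0. Both were PCNA genes, the sliding clamp of DNA replication: PCNA1 had 67.1 FPKM in pat nrpd1+/- and 33.0 FPKM in WT, and PCNA2 65.1 FPKM in pat nrpd1+/- and 29.6 FPKM in WT. Their length-centred ratios were 0.56 and 0.66, below the 2-fold line. The mitotic cyclin CYCB1;1 (13.98 FPKM in pat nrpd1+/-, 15.68 FPKM in WT) and the cytokinesis syntaxin KNOLLE (321 FPKM in pat nrpd1+/-, 312 FPKM in WT) hardly differed.

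Seed storage genes formed the clearest loss, before and after length-centring. Albumins and globulins are the proteins that seeds lay down as a nitrogen store. Of 5 genes for seed storage albumins, all compared, 4 were lower past 2-fold, beside the 2.87% of all genes that were, with a median of -1.33 (-1.66 length-centred). Of 7 globulin genes compared (8 listed), 5 were lower past 2-fold, with a median of -1.45 (-1.19 length-centred). No albumin or globulin gene had a higher value in pat nrpd1+/-.

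SESA2 had 39.7 FPKM in pat nrpd1+/- endosperm, against 258 FPKM in WT endosperm, a 6.50-fold lower level and the lowest ratio among albumins. SESA3 had 201 FPKM in pat nrpd1+/- and 456 FPKM in WT, and SESA4 had 114 FPKM in pat nrpd1+/- and 288 FPKM in WT. SESA1, the neighbour of these genes on chromosome 4, had nearly the same level, at 199.9 FPKM in pat nrpd1+/- and 229 FPKM in WT. The 4 genes stand in a row between 13607329 and 13614283 (TAIR10.1), and their coding sequences are 80.6% to 89.7% identical with identical stretches of up to 49 bases, so reads may be split between them. SESA5, on chromosome 5, had 0.708 FPKM in pat nrpd1+/- and 4.39 FPKM in WT. Among globulins, CRA1 (CRU1, cruciferin) had 44.5 FPKM in pat nrpd1+/- and 222 FPKM in WT, 5.002-fold lower. CRU3 had 0.142 FPKM in pat nrpd1+/- and 4.28 FPKM in WT, and CRU2 had 0.143 FPKM in pat nrpd1+/- and 2.13 FPKM in WT, so both cruciferins were near nil in the mutant. The most abundant member, the cupin AT4G36700, had 821 FPKM in pat nrpd1+/- and 1080 FPKM in WT. Of 6 embryo markers compared, 5 had a lower value in pat nrpd1+/- as well, with a median of -0.38 (-0.18 length-centred), and their part in the storage and oil body differences was not tested.

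Oil body proteins coat the lipid droplets of seeds. Of 9 compared (11 listed), 3 were lower past 2-fold, beside 2.87% of all genes, 8 had a lower value and the median was -0.94 (-1.31 length-centred). OLEO1, the main oleosin of the embryo, had 154 FPKM in pat nrpd1+/- endosperm and 448 FPKM in WT endosperm. OLEO4 had 60.4 FPKM in pat nrpd1+/- and 130 FPKM in WT, and the caleosin-type peroxygenase ATPXG2 had 0.905 FPKM in pat nrpd1+/- and 3.83 FPKM in WT. OLEO2, with 375 FPKM in pat nrpd1+/- and 750 FPKM in WT, lay on the line. The most abundant, AT3G01570, had 2929 FPKM in pat nrpd1+/- and 2994 FPKM in WT, and OLEO3 had 1825 FPKM in pat nrpd1+/- and 1975 FPKM in WT.

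Of 8 desiccation genes compared (20 listed), 3 were lower past 2-fold: the dehydrins ERD10 (41.0 FPKM in pat nrpd1+/-, 152 FPKM in WT) and COR47 (9.39 FPKM in pat nrpd1+/-, 28.6 FPKM in WT), and LEA14 (23.2 FPKM in pat nrpd1+/-, 58.4 FPKM in WT). Of all genes 2.87% were lower past 2-fold. The median of the desiccation genes was -0.42 (-0.29 length-centred). The dehydrin XERO1 ran the other way, at 10.6 FPKM in pat nrpd1+/- and 5.15 FPKM in WT. None of 13 regulators of seed maturation was past 2-fold, and their median was -0.09 (-0.26 length-centred). L1L, the most abundant, had 751 FPKM in pat nrpd1+/- and 670 FPKM in WT. LEC1 had 695 FPKM in pat nrpd1+/- and 448 FPKM in WT, FUS3 74.3 FPKM in pat nrpd1+/- and 83.7 FPKM in WT, and ABI3 11.9 FPKM in pat nrpd1+/- and 17.7 FPKM in WT. Of 15 genes of abscisic acid, the hormone of seed maturation, none was past 2-fold, with a median of -0.31.

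**Figure D4:**
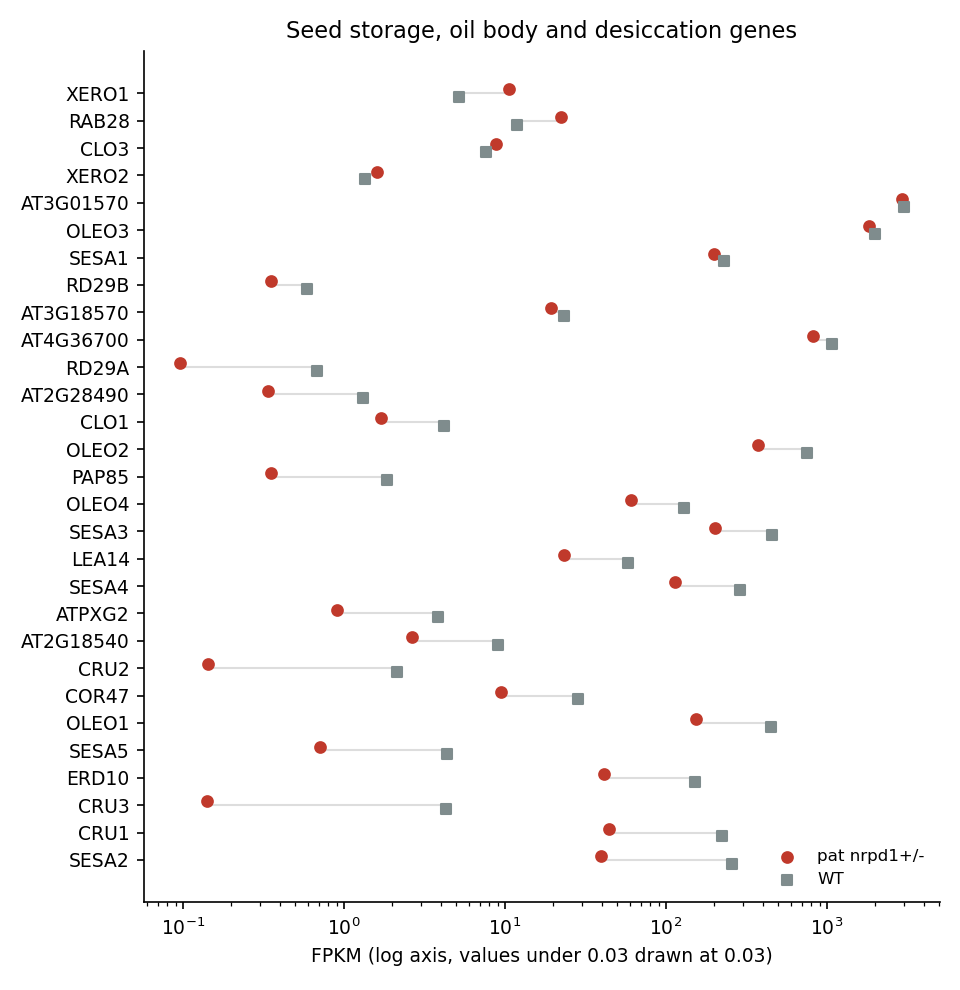
Red circles are pat nrpd1+/- and grey squares WT endosperm, in FPKM on a log axis, 1 pooled value each, for the 29 storage, oil body and desiccation genes compared. CRU3 and CRU2 are the farthest below WT by plain ratio, and 15 of the 29 are lower past 2-fold.

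Maturation factors of the B3 family bind the RY element. CATGCA, searched on both strands, was in 7.49% of the 250-base upstream windows of all protein-coding genes compared. It was in 5 of 5 albumin, 5 of 7 globulin and 8 of 9 oil body genes, and in 12.9% of the higher and 10.8% of the lower genes. The 200 bases before SESA2 and CRA1, the storage genes with the lowest ratios on the log2(FPKM + 1) scale (CRU3 and CRU2 are lower by plain ratio), and before SESA1, which hardly differed, are shown with CATGCA or its complement in capitals (RefSeq TAIR10.1, 5′ to 3′ along each gene).
SESA2, chr4:13609141-13609340, plus strand: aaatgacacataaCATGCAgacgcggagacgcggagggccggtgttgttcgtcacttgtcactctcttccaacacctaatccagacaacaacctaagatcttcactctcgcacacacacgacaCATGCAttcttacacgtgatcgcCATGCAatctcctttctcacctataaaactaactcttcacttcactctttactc
CRA1, chr5:17758337-17758536, minus strand: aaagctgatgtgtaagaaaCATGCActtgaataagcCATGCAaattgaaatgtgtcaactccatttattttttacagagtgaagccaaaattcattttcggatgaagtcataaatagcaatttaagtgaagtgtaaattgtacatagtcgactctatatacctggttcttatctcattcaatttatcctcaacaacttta
SESA1, chr4:13607129-13607328, plus strand: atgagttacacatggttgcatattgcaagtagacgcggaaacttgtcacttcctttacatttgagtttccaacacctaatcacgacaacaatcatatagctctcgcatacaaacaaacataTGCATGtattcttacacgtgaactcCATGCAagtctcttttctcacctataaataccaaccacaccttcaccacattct
SESA1 carried 2 such elements and SESA2 carried 3, and the part of the element in these differences was not tested.

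The WT values of the separately normalized table, scaled to the same median, were above the WT values used here for several storage genes. SESA2 had 1280 FPKM there against 258 FPKM in the WT used here, CRU1 757 against 222 FPKM, and OLEO1 2634 against 448 FPKM. SESA3 had 3185 against 456 FPKM. At SESA3 and OLEO1 the 2 WT values lay farther apart than pat nrpd1+/- and the WT used here. The other WT was the lower one for SESA1, AT3G01570 and the caleosin CLO3. Where the other WT is the higher of the 2, a value below the WT used here is below both by necessity. Pat nrpd1+/- endosperm was below both WT values for 4 of 5 albumins, 7 of 7 globulins and 7 of 9 oil body genes. These counts take in genes not testable in that other table, SESA2, CRU1 and OLEO1 among them. Over genes testable in both, 2 albumins, 4 globulins and 4 oil body genes were lower past 2-fold against that WT. In the mat nrpd1+/- table, over the shared WT data, SESA2, SESA3 and SESA4 were listed at 0, against 291, 514 and 325 FPKM in WT. Such a 0 can be a failed estimate. SESA1 had 1509 FPKM there, against 258 FPKM in WT, and SESA5 had 256 FPKM, against 4.96 FPKM in WT. CRU1 had 2137 FPKM, against 251 FPKM in WT, and OLEO1 had 5328 FPKM, against 509 FPKM in WT.

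Transport and use of sucrose showed single losses. SUC2, the sucrose carrier that loads the phloem and is also active in seeds, had 9.35 FPKM in pat nrpd1+/- endosperm, against 37.6 FPKM in WT endosperm. Of 9 phloem markers listed, 2 were in the comparison, SUC2 among them. The other phloem markers were near 0 in both genotypes, except NAKR1 at 74.0 FPKM in pat nrpd1+/- and 72.0 FPKM in WT. NAKR1 thus did not share the SUC2 difference, and the rest were too low to show one. SUS2, a sucrose synthase of seeds, had 13.1 FPKM in pat nrpd1+/- and 43.4 FPKM in WT. SUC5, the sucrose carrier of the endosperm, lies in a left-out region and had 158 FPKM in pat nrpd1+/- and 179 FPKM in WT. Of 10 SWEET sugar exporters, none was past 2-fold, and the most abundant, SWEET11, had 1005 FPKM in pat nrpd1+/- and 1001 FPKM in WT. None of 8 amino acid carriers was past 2-fold either, the most abundant being UMAMIT25 (445 FPKM in pat nrpd1+/-, 341 FPKM in WT).

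Defensin-like genes encode small cysteine-rich secreted peptides, some of which act in defence and some in pollen and seed signalling. Of 47 compared, 9 were lower past 2-fold, beside 2.87% of all genes, and none higher, 34 had a lower value, and the median was -0.55 (-0.60 length-centred). AT2G21465 had 1.09 FPKM in pat nrpd1+/- endosperm, against 27.0 FPKM in WT endosperm, the lowest ratio of all genes named by size. AT3G24510 had 2.13 FPKM in pat nrpd1+/- and 11.9 FPKM in WT, and SCRL10, an SCR-like gene counted outside this family, had 1.596 FPKM in pat nrpd1+/- and 15.6 FPKM in WT. AT5G55132 and AT5G60553 were more abundant, with 19.0 and 9.34 FPKM in pat nrpd1+/-, and 47.9 and 27.7 FPKM in WT. WT differed widely between tables at these genes: the scaled value of the other table was 0.323 FPKM for AT2G21465, 0.103 FPKM for AT3G24510 and 0.150 FPKM for SCRL10, below the pat nrpd1+/- value in each case. The same held for all 9 called defensin-like genes, so against that other WT their direction turned. The mat nrpd1+/- table, with the shared WT data, gave log2 ratios of -4.94 for AT2G21465, -3.62 for AT3G24510 and -4.12 for SCRL10.

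Few other defence genes were past 2-fold, and over all genes 2.29% were higher and 2.87% lower. Of 11 receptors and signalling proteins compared (25 listed), 1 was past 2-fold: RBOHD, the oxidase of the immune oxidative burst, with 1.61 FPKM in pat nrpd1+/- endosperm and 6.64 FPKM in WT endosperm (-0.91 length-centred, within 2-fold). The median of the list was -0.41 (-0.30 length-centred). RLP55, a receptor-like protein among the largest decreases, had 2.15 FPKM in pat nrpd1+/- and 13.5 FPKM in WT. The antifungal products held 1 higher gene of 7, PR4, with 2.38 FPKM in pat nrpd1+/- and 0.636 FPKM in WT (0.61 length-centred, within 2-fold). Their most abundant member, the seed defensin PDF2.1, had 1601 FPKM in pat nrpd1+/- and 1954 FPKM in WT. None of 3 WRKY genes, 1 salicylate gene and 6 rapid stress genes compared was past 2-fold, with WRKY11 at 14.3 FPKM in pat nrpd1+/- and 13.1 FPKM in WT, ALD1 at 2.297 FPKM in pat nrpd1+/- and 2.23 FPKM in WT, and ZAT12 at 90.11 FPKM in pat nrpd1+/- and 97.6 FPKM in WT. Over the whole family of 21 WRKY factors compared, 1 was lower past 2-fold, WRKY48, with 0.431 FPKM in pat nrpd1+/- and 3.44 FPKM in WT (-1.57 length-centred). In the jasmonate and ethylene list 1 of 17 was past 2-fold, MYC2, at 0.000339 FPKM in pat nrpd1+/- and 1.505 FPKM in WT (-0.78 length-centred, within 2-fold), while JAZ12 had 192 FPKM in pat nrpd1+/- and 112 FPKM in WT.

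Most genes of the RdDM route had lower values, as did most genes of like transcript length. Of 18 compared (22 listed), 16 had a lower value in pat nrpd1+/- endosperm and the median was -0.58. Lower past 2-fold were 2, beside 2.87% of all genes. The median transcript was 3180 bp and the length-centred median was -0.12, and in the longest group of all genes 8.21% had a higher value. AGO4, the main siRNA carrier, had 32.5 FPKM in pat nrpd1+/- and 76.2 FPKM in WT, and CHR40 (CLSY4), a chromatin remodeller that helps recruit Pol IV, had 1.83 FPKM in pat nrpd1+/- and 6.88 FPKM in WT. Their length-centred ratios, -0.66 and -0.84, were within 2-fold. RDR2 had 3.48 FPKM in pat nrpd1+/- and 5.87 FPKM in WT, and NRPD2A, the shared second subunit, had 2.92 FPKM in pat nrpd1+/- and 5.45 FPKM in WT. The exceptions were RDM1 (44.2 FPKM in pat nrpd1+/-, 24.1 FPKM in WT) and SHH1 (12.6 FPKM in pat nrpd1+/-, 9.35 FPKM in WT). Pat nrpd1+/- lay below both WT values for 16 of the 18. In the longest group of genes the other WT lay above the WT used here, by a median log2 ratio of 0.70. The part of length in this count was not tested. Where the other WT is the higher of the 2, a value below the WT used here is below both by necessity.

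Of 5 genes for upkeep or removal of methylation, 1 was lower past 2-fold, beside 2.87% of all genes. It was the chromomethylase CMT2, with 2.49 FPKM in pat nrpd1+/- endosperm and 6.23 FPKM in WT endosperm (-0.42 length-centred). ROS1, a DNA glycosylase that removes methylation, lies in a left-out region and had 6.71 FPKM in pat nrpd1+/- and 25.7 FPKM in WT. In Arabidopsis, ROS1 transcription is known to depend on methylation of its promoter. DME, the glycosylase of the central cell, also in a left-out region, had 1.82 FPKM in pat nrpd1+/- and 3.84 FPKM in WT, and MET1, the CG methyltransferase, had 1.98 FPKM in pat nrpd1+/- and 1.90 FPKM in WT. No length-centred ratio was computed for ROS1 and DME, because they lie in left-out regions, and the part of length in their differences was not tested.

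**Figure D5:**
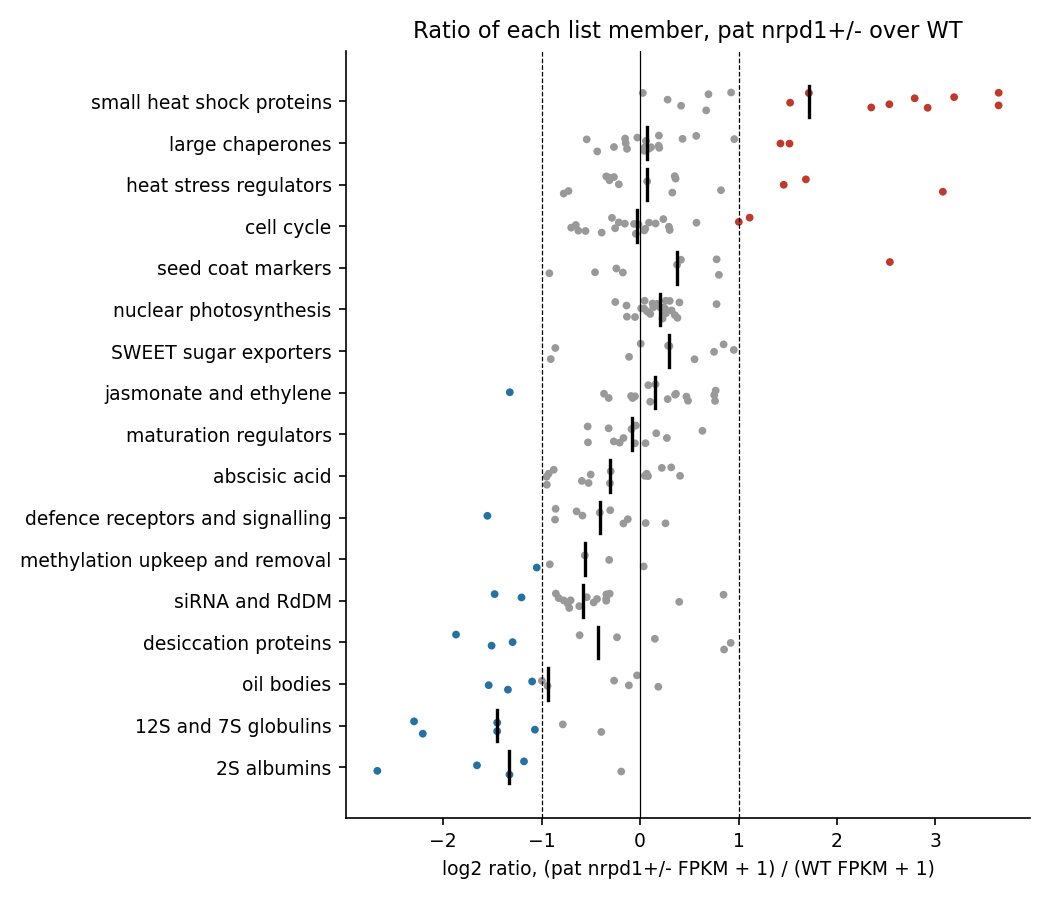
Each point is a gene, placed by its log2 ratio of (pat nrpd1+/- FPKM + 1) over (WT FPKM + 1), with red for higher and blue for lower past 2-fold (dashed lines), and a black bar at the median of each list. Medians run from 1.71 for small heat shock proteins to -1.45 for globulins.

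Long-transcript families behaved like the RdDM list. Of 45 NBS-LRR resistance genes 43 had a lower value in pat nrpd1+/- endosperm, with a median of -0.36 and 0.25 length-centred, so the sign turned with the correction. Of 74 leucine-rich repeat kinases 63 had a lower value, with a median of -0.36 and 0.13 length-centred. Of 53 ABC transporters, 3 were lower past 2-fold, beside 2.87% of all genes, and the median was -0.33 and 0.03 length-centred. Nuclear photosynthesis genes, which are short, were the reverse: 21 of 25 had a higher value, none past 2-fold, with a median of 0.20 and -0.16 length-centred. LHCB6, a light-harvesting protein, had 2511 FPKM in pat nrpd1+/- and 1466 FPKM in WT.

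Transcripts of the chloroplast genome were lower in pat nrpd1+/- endosperm. Of 89 compared, 40 were lower past 2-fold and none higher, beside 2.87% and 2.29% of all genes. Of the 89, 83 had a lower value, with a median of -0.95. ATCG00350 had 4.998 FPKM in pat nrpd1+/- and 28.3 FPKM in WT, and ATCG00550 had 193 FPKM in pat nrpd1+/- and 679 FPKM in WT. Of 20 mitochondrial genes, 4 were lower past 2-fold, beside the same 2.87% of all genes, and none higher, with a median of -0.26. Between WT values of the separately normalized tables these transcripts differed far more, by a median log2 ratio of 4.27 for chloroplast genes, with ATCG00350 at 2970 FPKM in the other WT.

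Among the 15 largest rises, 12 were protein-coding genes, 6 of them heat shock genes, and the largest of all was AT2G08665, a long noncoding RNA of unknown role, with 22.2 FPKM in pat nrpd1+/- endosperm and 1.41 FPKM in WT endosperm. AT5G13565 (70.0 FPKM in pat nrpd1+/-, 10.101 FPKM in WT) and AT3G61117 (17.82 FPKM in pat nrpd1+/-, 2.95 FPKM in WT) are uncharacterized, with transcripts of 125 and 129 bp. AT2G08285, a noncoding RNA, had 14.4 FPKM in pat nrpd1+/- and 2.13 FPKM in WT, and the small nucleolar RNA AT4G03915 had 22.2 FPKM in pat nrpd1+/- and 3.95 FPKM in WT. In the scaled WT of the nrpd1-/- table AT4G03915 had 18.1 FPKM, so its rise was within 2-fold there. The depth behind such short RNAs is unknown, and they are not compared further.

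Among the 15 largest decreases, AT1G01250, annotated as an integrase-type DNA-binding protein, had 2.59 FPKM in pat nrpd1+/- endosperm and 14.8 FPKM in WT endosperm. AT2G24693, a protein of unknown function, had 1.77 FPKM in pat nrpd1+/- and 11.8 FPKM in WT, and the noncoding RNA AT3G01555 had 1.89 FPKM in pat nrpd1+/- and 23.4 FPKM in WT. AT5G41109, AT2G11215 and AT5G60240, all uncharacterized and under 170 bp, had 2.85, 8.90 and 1.27 FPKM in pat nrpd1+/-, and 19.1, 59.1 and 7.63 FPKM in WT. The rest were the noncoding RNA AT1G05283 (1.29 FPKM in pat nrpd1+/-, 7.52 FPKM in WT) and the small nucleolar RNAs AT1G03935 (9.18 FPKM in pat nrpd1+/-, 57.2 FPKM in WT) and AT3G04155 (6.69 FPKM in pat nrpd1+/-, 35.9 FPKM in WT). In the scaled WT of the nrpd1-/- table, AT3G01555, AT2G11215 and AT1G05283 were listed at 0 and AT2G24693 had 0.244 FPKM. Against that other WT these genes were higher in pat nrpd1+/-, so their direction turned. AT1G01250, AT5G41109, AT5G60240, AT1G03935 and AT3G04155 stayed lower.

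Some genes were listed at 0 in 1 genotype only. With at least 1 FPKM in the other, 40 were listed at 0 in pat nrpd1+/- endosperm, 25 of them noncoding RNAs, and 32 at 0 in WT endosperm, 21 of them noncoding RNAs. The highest at 0 in WT were the spliceosomal U4.3p (192 FPKM in pat nrpd1+/-), the small nucleolar RNAs AT1G05417 (129 FPKM) and AT1G05433 (37.6 FPKM), the arginine tRNA AT3G12585 (44.5 FPKM) and AT3G25221 (36.9 FPKM). The highest at 0 in pat nrpd1+/- were the spliceosomal U5.13 (149 FPKM in WT), AT1G24475 (37.6 FPKM) and the small nucleolar RNAs AT4G08625 (31.1 FPKM), U60.2F (27.1 FPKM) and AT1G19376 (26.503 FPKM). All 10 were 105 bp or shorter, and such a 0 can be a failed estimate.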

How the data were processed

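Endosperm mRNA was sequenced from F1 seeds. The authors trimmed reads with Trim Galore, aligned them to TAIR10 with TopHat and computed FPKM with Cuffdiff (2.2.1 in the submitters' processing notes), with 1 pooled value per genotype and a scale of its own for each table. The deposited tables also hold the authors' fold changes, test statistics, p-values and q-values, which were not used. Which WT libraries were pooled is not given in the sources used here, and pat nrpd1+/- libraries are not among the samples analysed here, so depth and replicate error are unknown.

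Genes with status OK outside the introgressed regions (6867 listed genes overlap them) were compared as log2 ratios with a pseudocount of 1 FPKM, called at 2-fold. The introgressions belong to the Ler nrpd1 line, which is no parent of this cross. The calculation was tested on simulated data. Named genes were the 15 largest rises and decreases by plain ratio (at least 1 FPKM in both genotypes and 5 in the higher), the 5 highest listed at 0 in 1 genotype, list members past 2-fold or most abundant, and NRPD1; other members are named to describe their list and were chosen after their values were seen. The 29 lists and 32 families, and the genes followed, were chosen with earlier results of these data known. Gene names, transcript lengths and sequences came from RefSeq TAIR10.1, whose genes lay within the deposited loci for 16151 of 16153 nuclear genes. Length-centring subtracted the median ratio in 50 bins of transcript length. Analyses used Python 3.11.15, pandas 2.3.3 and Biopython 1.88. Overlapping and antisense genes, and close paralogs, can share reads.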

Additional observations from a re-analysis of the deposited data

How the results depend on the processing

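No paired analysis was possible because each genotype has 1 pooled value, and for the same reason no replicate could be left out. The counts of 372 higher and 466 lower genes became 969 and 1358 with a pseudocount of 0.1 FPKM, and 3452 and 2834 with the WT values of the nrpd1-/- table, scaled to the same median, over 14972 genes. Between those 2 sets of WT values, 26.1% of genes differed past 2-fold, against 4.41% between pat nrpd1+/- and its own WT over the same genes; the cause was not tested. Of 278 higher and 382 lower genes with a value there, 227 and 314 stayed past 2-fold in their direction and 21 and 39 had the opposite sign. Other settings (a minimum of 1 FPKM, median centring, left-out regions kept, every status) moved the counts by less than 1.5 times, though median centring changed the split to 305 higher and 612 lower. In 2 alternatives chosen after seeing the data, protein-coding genes alone gave 255 and 334, and length-centring gave 259 and 317, keeping 217 of the 372 and 216 of the 422 lower genes with a length. Length-centring took 9 of the 62 genes named by rule within 2-fold: RBOHD, PR4, MYC2, AGO4, CHR40, CMT2, PCNA1, PCNA2 and PDF2. Of the family members named besides, MYB5, LTP3, EMB2296, AGL102 and AT5G35120 also fell within it. The 9 small heat shock genes, 4 albumins and 5 globulins kept their counts under it. The defensin-like AT2G21465 and AT3G24510 and the SCR-like SCRL10, not testable in the nrpd1-/- table, were lower than the WT of their own table but higher than that other WT value. The same held for AT3G01555, AT2G11215, AT2G24693 and AT1G05283. The rise of AT4G03915 fell within 2-fold against that other WT, at a log2 ratio of 0.28.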

Other observations

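In the 12 left-out regions, 4389 genes had status OK, of which 115 were higher and 113 lower past 2-fold in pat nrpd1+/- endosperm, 5.19% in all, beside 5.15% outside the regions. Among them LEA7, a desiccation protein, had 2.33 FPKM in pat nrpd1+/- and 13.6 FPKM in WT, and BAN, the anthocyanidin reductase of the inner seed coat, had 45.7 FPKM in pat nrpd1+/- and 24.4 FPKM in WT. The small heat shock gene AT1G53540 had 7.48 FPKM in pat nrpd1+/- and 0.898 FPKM in WT.

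Embryo-expressed genes outside the storage lists included PDF2, a homeodomain factor of the outer cell layer, with 1.28 FPKM in pat nrpd1+/- and 4.72 FPKM in WT, and CUC1, a boundary regulator, with 33.5 FPKM in pat nrpd1+/- and 27.8 FPKM in WT. Of 42 MADS-box genes 2 were higher, beside 2.29% of all genes, and both were within 2-fold when length-centred: AGL102 with 17.61 FPKM in pat nrpd1+/- and 6.21 FPKM in WT, and AT5G35120 with 177 FPKM in pat nrpd1+/- and 86.7 FPKM in WT.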
